A study of Mus musculus with 32 samples.

Results

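The nuclear genes for the subunits and assembly factors of respiratory complex I, complex III and the mitochondrial ATP synthase were followed in ear and dorsal skin of NC/Nga mice, which as a strain readily develop dermatitis. They were taken as every array row whose symbol begins with Nduf, Uqcr or Atp5, with pseudogene symbols left out. The rule found 71 genes, each on 1 row, of 19505 genes with a symbol on the array. Of these, 35 encode complex I subunits (6 catalytic core and 29 accessory), 8 encode complex I assembly factors, 8 encode complex III subunits and 17 encode ATP synthase subunits (5 of the F1 head and 12 of the membrane part and stalk). The remaining 3 are Ndufa4, Ndufa4l2 and Ndufb4b. RNA from punches of dorsal skin and ear was hybridised to 32 single-sample Affymetrix arrays, with 8 mice in each of 4 groups. The groups were HDM-treated back skin, sham back skin, HDM-treated ear and sham ear. All mice were NC/Nga animals, and the labels give only the abbreviation HDM, no age or sex and no account of the sham treatment. Mouse numbers recur in both tissues, and nothing in the labels ties same-numbered samples to 1 animal, so p-values measure the spread between these samples.

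Oxidative phosphorylation passes electrons from NADH through complex I, ubiquinone, complex III and cytochrome c to complex IV, and the proton gradient built on the way drives the ATP synthase. Most subunits are encoded in the nucleus and imported, and the complexes also need dedicated assembly factors. Skeletal muscle is rich in these complexes, and an ear or skin punch can hold some of it.

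Values are log2 expression levels, and differences are on the same scale with their standard error, each from 8 arrays per group. A gene was called at a limma adjusted p (Benjamini-Hochberg over 22206 rows) under 0.05. A background level was set on each array by its negative control rows. Of the 71 genes, 0 lay below it on all 8 arrays of any group, and 69 lay above it on all 32 arrays. The exceptions were Ndufa7, above on 25 of 32, and Ndufaf2, above on 27 of 32. The background level was 4.61 to 4.98 on HDM ear arrays and 5.09 to 5.38 on sham ear arrays, with no overlap. Its part in the ear differences was not tested. Rows named for mitochondrially encoded subunits were not analysed here. Marker genes showed which other tissue each group held. The muscle score was the mean level of 26 skeletal muscle genes, mostly contractile or calcium-handling, with Mb and Ckm also among them. Its lowest, median and highest values were 7.56, 8.61 and 9.60 on HDM ear arrays, against 10.24, 11.58 and 12.16 on sham ear arrays. The muscle score was 10.52, 10.97 and 11.54 in HDM back skin and 8.90, 11.16 and 13.16 in sham back skin. The hair follicle score ran from 11.88 to 13.94 in HDM back skin and from 6.87 to 14.96 in sham back skin, where mice 1 and 2 stood apart with leukocyte scores of 10.08 and 9.81 against at most 8.79 on the other sham back arrays. In bulk tissue, fewer cells of a type and less RNA per cell cannot be told apart.

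Many of the respiratory chain genes were higher in HDM ears than in sham ears. Of the 71 genes, 31 were higher and 1 was lower in HDM ears, while 16.4% of all rows were called higher and 15.5% lower. The median difference over the 71 genes was 0.41, against -0.02 over all rows, and 58 differences were positive. Complex III had 5 of 8 genes higher, the ATP synthase 11 of 17, complex I 11 of 35 with 1 lower, and the complex I assembly factors 1 of 8. When each ear array was left out in turn, between 29 and 36 of the genes were called.

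**Figure D1:**
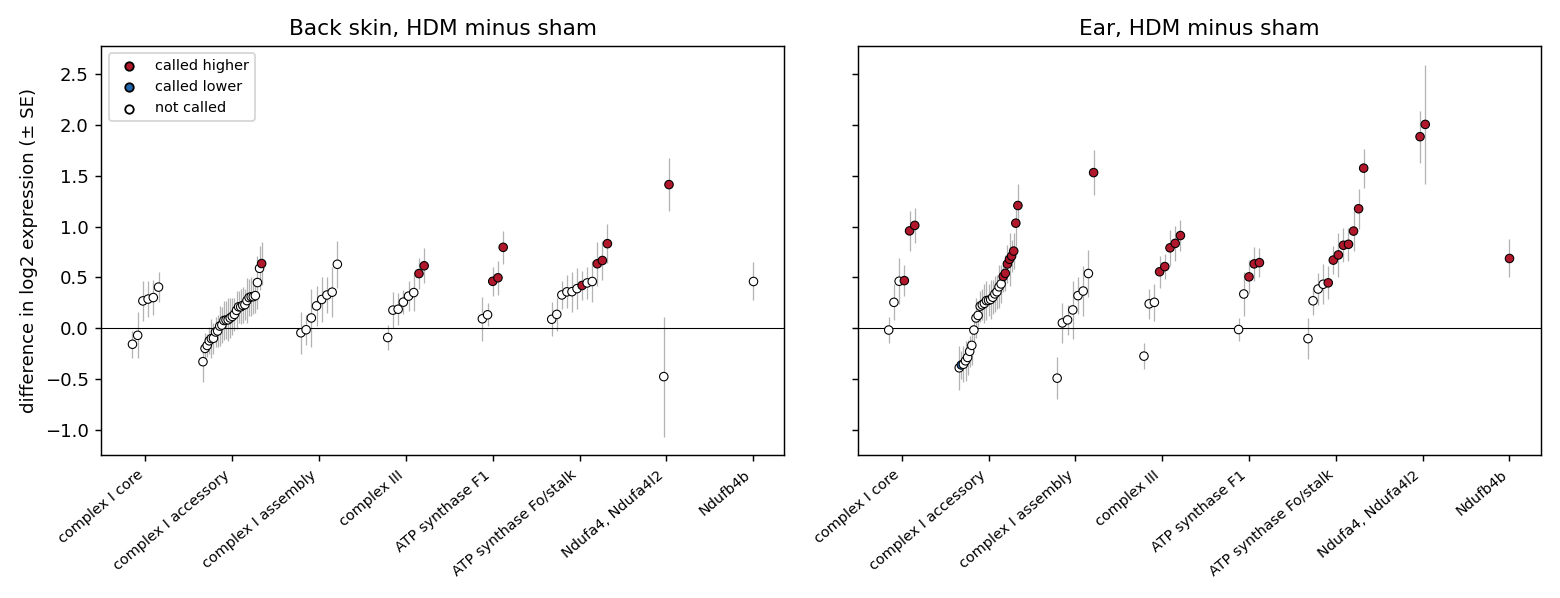
Difference in log2 expression (± SE) between HDM and sham mice in back skin (left) and ear (right) for the 71 genes, 1 point per gene, grouped by complex. Filled red points were called higher, filled blue points lower and open points were not called. In ear, Ndufaf4 at 1.53 stands above the other assembly factors and the ATP synthase points reach 1.58.

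Ndufa4 and Ndufa4l2 encode related small proteins. NDUFA4 was first assigned to complex I and is now placed with cytochrome c oxidase, and NDUFA4L2 is known as a product of hypoxia-inducible factor signalling that lowers complex I activity. Ndufa4 levels were 15.27, 16.34 and 17.15 (lowest, median, highest) in HDM ears, against 13.54, 14.31 and 15.10 in sham ears. Every HDM ear lay above every sham ear, and the difference of 1.89 ± 0.26 passed the test (limma adjusted p = 1.28e-06). Ndufa4l2 was called higher by 2.01 ± 0.59 (limma adjusted p = 0.00816), but the HDM ears were spread widely. It stood at 11.13, 11.03, 11.0 and 9.34 in HDM mice 1, 2, 5 and 7, against 5.53, 6.65 and 7.40 (lowest, median, highest) in sham ears. The other 4 HDM ears, at 6.20 to 7.40, lay within the range of the sham ears. A single spread per gene was pooled over the 4 groups, and the SD of Ndufa4l2 was 2.16 in HDM ears and 0.62 in sham ears, so its error in ear may be too small.

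Among the core subunits of complex I, which carry the flavin and the iron-sulfur clusters, Ndufv2, Ndufs8 and Ndufv1 were higher in HDM ears. Ndufv2, an iron-sulfur subunit of the NADH-oxidising module, stood at 11.08, 11.75 and 12.17 in HDM ears, against 10.14, 10.64 and 11.21 in sham ears. The ranges overlapped only between 11.08 and 11.21, and the difference was 1.01 ± 0.17 (limma adjusted p = 2.58e-05). Ndufs8, an iron-sulfur subunit on the way to ubiquinone, was higher by 0.96 ± 0.20 (limma adjusted p = 2.77e-04). Ndufv1, which binds the flavin and NADH, was higher by 0.47 ± 0.15 (limma adjusted p = 0.0158). Ndufs1, the largest core subunit, had a difference of -0.02 ± 0.13 that did not pass.

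Of the 29 accessory subunits, which surround the core and are needed for its assembly and stability, 8 were higher and 1 was lower. Ndufc2, a membrane-arm subunit, stood at 12.64, 13.66 and 14.36 in HDM ears, against 11.76, 12.34 and 13.10 in sham ears. It was higher by 1.21 ± 0.21 (limma adjusted p = 3.97e-05), with 8 of 8 HDM ears above the sham mean. Ndufa8, an intermembrane-space subunit, was higher by 1.03 ± 0.22 and Ndufc1 by 0.76 ± 0.18. Ndufb3 was the only subunit called lower, at 7.33 ± 0.28 in HDM ears and 7.69 ± 0.25 in sham ears (SD, n = 8 each; limma adjusted p = 0.0377). The lowest accessory difference was -0.39 and the median 0.27.

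Of the 8 assembly factor genes, Ndufaf4 alone was called. NDUFAF4 acts early in building complex I. Its gene stood at 10.05, 10.84 and 11.60 in HDM ears, against 8.73, 9.24 and 9.78 in sham ears. The groups did not overlap, and the difference was 1.53 ± 0.22 (limma adjusted p = 2.15e-06). The other assembly factor genes had differences from -0.49 to 0.54, and none of these 7 passed the test, though Ndufaf1 (unadjusted p = 0.0232) and Ndufaf2 (unadjusted p = 0.0269), both assembly factors, were below 0.05 before adjustment in limma.

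In complex III, which moves electrons from ubiquinol to cytochrome c, the called genes included both catalytic and structural subunits. Uqcrfs1, the Rieske iron-sulfur protein, stood at 11.28, 12.17 and 12.73 in HDM ears, against 10.88, 11.17 and 11.69 in sham ears. The ranges overlapped, and the difference was 0.84 ± 0.17 (limma adjusted p = 2.55e-04). Uqcrb, a ubiquinone-binding subunit, was higher by 0.91 ± 0.15 and Uqcrc2, a core protein of the matrix side, by 0.79 ± 0.18. Uqcrh, the hinge protein near cytochrome c, had a negative difference of -0.28 ± 0.13 that did not pass.

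Of the ATP synthase genes 8 of 12 were called higher in the membrane part and stalk and 3 of 5 in the F1 head. Atp5pb, the b subunit of the peripheral stalk that holds the head still, stood at 12.91, 13.81 and 14.48 in HDM ears, against 11.86, 12.12 and 12.50 in sham ears. The groups did not overlap, and the difference was 1.58 ± 0.19 (limma adjusted p = 2.05e-07). Atp5o, the subunit that joins the stalk to the head, stood at 13.20, 14.08 and 15.13 in HDM ears, against 12.64, 12.82 and 13.11 in sham ears. It also showed no overlap and was higher by 1.18 ± 0.20 (limma adjusted p = 1.82e-05). Atp5j, coupling factor 6 of the stalk, was higher by 0.96 ± 0.20. In the head, the catalytic beta subunit gene Atp5b was higher by 0.65 ± 0.14, the delta subunit gene Atp5d by 0.63 ± 0.17 and the rotating gamma subunit gene Atp5c1 by 0.51 ± 0.16. Atp5g1, Atp5g2 and Atp5g3 encode the same mature c-ring subunit, and Ndufb4b is a close copy of Ndufb4, so the probes of these genes may share signal.

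RefSeq promoter sequences (build GRCm38.p6) from 250 bases before to 50 bases after the start were at hand for 61 of the 71 genes. A match to CGCANGCGC on either strand, the core of the site of NRF1, a regulator of respiratory chain genes, was found in the promoters of 23 of the 61 genes (37.7%), against 7.12% of all 27025 genes with a promoter sequence. This motif is nearly its own reverse complement, so matches on both strands can overlap. AAGATGGC, a core of the YY1 site, was found in 18.0% against 3.19%, the ETS-type CCGGAAG in 23.0% against 9.93%, and the ERR half-site AAGGTCA in 11.5% against 5.38%. Base composition was not matched, and a match is no evidence of binding. The 3 genes with the largest ear differences among those called higher with a promoter match are shown, with the matched letters in capitals. They carry the YY1 core on the reverse strand in Atp5pb (chr3:105959214-105959513, minus strand), and the NRF1 core in Ndufaf4 (chr4:24897833-24898132, plus strand) and Atp5o (chr16:91931581-91931880, minus strand).
Atp5pb: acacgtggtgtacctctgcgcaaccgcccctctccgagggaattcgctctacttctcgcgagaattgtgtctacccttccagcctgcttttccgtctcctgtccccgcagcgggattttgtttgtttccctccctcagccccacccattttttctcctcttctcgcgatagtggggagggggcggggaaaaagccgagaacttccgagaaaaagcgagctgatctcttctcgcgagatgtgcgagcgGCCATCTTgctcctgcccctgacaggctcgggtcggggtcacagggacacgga
Ndufaf4: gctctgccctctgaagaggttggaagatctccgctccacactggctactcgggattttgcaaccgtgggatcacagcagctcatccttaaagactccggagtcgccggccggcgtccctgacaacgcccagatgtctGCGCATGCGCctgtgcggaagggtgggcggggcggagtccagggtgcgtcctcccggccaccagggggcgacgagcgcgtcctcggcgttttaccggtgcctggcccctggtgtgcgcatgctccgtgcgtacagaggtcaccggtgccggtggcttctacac
Atp5o: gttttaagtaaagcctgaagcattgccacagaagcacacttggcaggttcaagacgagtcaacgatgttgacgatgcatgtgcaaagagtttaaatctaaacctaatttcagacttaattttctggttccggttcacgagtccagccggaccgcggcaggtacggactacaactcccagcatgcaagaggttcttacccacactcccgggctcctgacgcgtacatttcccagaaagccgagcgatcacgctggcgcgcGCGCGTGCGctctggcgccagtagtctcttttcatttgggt

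The other energy genes of the ear showed which neighbours of the chain moved. Of 8 genes of complex II and its assembly, 5 were higher and 0 lower, with Sdhaf1, an assembly factor, at 1.06 ± 0.21 and Sdhd, a membrane anchor, at 0.81 ± 0.18. Of 16 nuclear complex IV genes, 6 were higher and 3 lower. Cox7b was higher by 1.08 ± 0.21 and Cox5a by 0.78 ± 0.16, while Cox6a2 and Cox7a1, the heart and skeletal muscle isoform genes, were among the 3 lower ones, Cox6a2 by -2.29 ± 0.61. Cycs, somatic cytochrome c, was higher by 1.39 ± 0.18 (limma adjusted p = 5.64e-07). Of 15 genes of pyruvate oxidation and the citric acid cycle, 7 were higher and 1 lower, led by Mdh2 at 1.15 ± 0.14, with Ogdh at -0.69 ± 0.20. Of 16 glycolysis genes, 9 were higher and 1 lower. Slc16a3, a lactate exporter, was higher by 3.60 ± 0.60 and Pgk1 by 2.22 ± 0.27, and Pfkm, the muscle phosphofructokinase gene, fell by 2.41 on the log2 scale. Of 14 genes listed for mitochondrial biogenesis, 3 were higher and 3 lower, with a median difference of -0.06. Among these, Ppargc1a, a coactivator that drives mitochondrial biogenesis, fell by 1.78, and its relative Ppargc1b was higher by 0.78 ± 0.24. The other lists had median differences of 0.51 for complex II, 0.14 for complex IV, 0.32 for the citric acid cycle and 1.28 for glycolysis.

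Muscle, fat and immune markers moved with the same comparison. In HDM ears 25 of 26 muscle genes fell, with a median of -2.77, and 11 of 11 adipocyte genes fell, while 9 of 13 leukocyte genes were higher and 1 was lower. Of 6 cartilage genes 4 fell. The part of these cells in the ear result was not tested, and because the muscle scores of HDM and sham ears did not overlap, agent and muscle content cannot be told apart there. With the muscle score as a covariate 9 of the 71 genes were called higher in ear and 0 lower, while 2.66% of all rows were called higher, 1.23% lower and 3.89% in either direction. The 9 were Ndufa8, Ndufv2, Ndufb10, Ndufa4, Uqcrfs1, Atp5b, Atp5g1, Atp5j and Atp5pb. In this fit Atp5pb had a difference of 1.37 ± 0.28 (limma adjusted p = 0.00459) and Ndufa4 a limma adjusted p of 0.00975. With the adipocyte score added, 0 of the 71 genes were called by limma and 7 had an unadjusted p under 0.05, while 0.279% of all rows were called. The adipocyte scores did not overlap either, at 7.67 to 9.06 in HDM ears and 9.62 to 10.05 in sham ears. Agent and adipocyte content therefore cannot be told apart there.

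**Figure D2:**
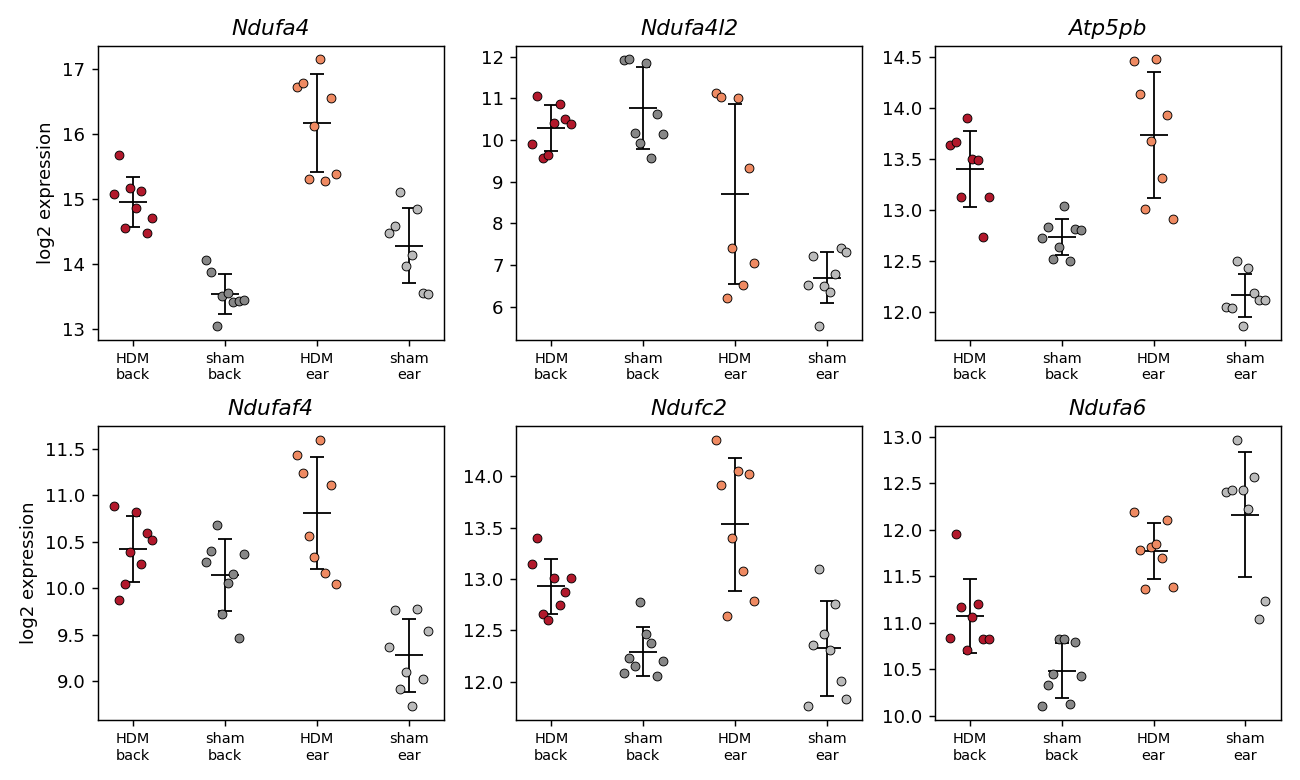
Log2 expression of 6 genes on every array, 1 point per mouse, with the mean and SD of each group of 8. HDM groups stand left of their sham groups. Ndufa4 separates HDM from sham in both tissues, while Ndufa4l2 in HDM ear splits between 6.20 and 11.13.

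HDM back skin showed a smaller set of higher genes, and none was lower. Of the 71 genes, 11 were higher and 0 lower in HDM back skin, while 6.18% of all rows were called higher and 8.56% lower. A further 10 genes had an unadjusted p under 0.05. The median difference was 0.26, against 0.01 over all rows, and 57 differences were positive. The ATP synthase had 7 of 17 genes higher, complex III 2 of 8, complex I 1 of 35 and the assembly factors 0 of 8, of which 1 had an unadjusted p under 0.05.

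Ndufa4 levels were 14.48, 14.97 and 15.67 in HDM back skin, against 13.04, 13.48 and 14.06 in sham back skin. The groups did not overlap, and the difference was 1.41 ± 0.26 (limma adjusted p = 2.29e-04). Ndufa4l2 had a difference of -0.48 ± 0.59 (limma adjusted p = 0.661), with overlapping ranges of 9.56 to 11.06 in HDM back skin and 9.57 to 11.94 in sham back skin. Its 95% interval, -1.68 to 0.72, leaves room for a change in either direction. Atp5o stood at 13.30, 13.48 and 13.85 in HDM back skin, against 12.49, 12.61 and 13.07 in sham back skin. It did not overlap between the groups and was higher by 0.83 ± 0.20 (limma adjusted p = 0.00311).

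Atp5c1 was higher by 0.80 ± 0.16 (limma adjusted p = 8.52e-04), with 8 of 8 HDM arrays above the sham mean and ranges that overlapped. Atp5pb was higher by 0.67 ± 0.19, Atp5md, a small subunit of the membrane part, by 0.63 ± 0.22, Atp5d by 0.50 ± 0.17 and Atp5b by 0.46 ± 0.14. In complex III, Uqcrfs1 was higher by 0.61 ± 0.17 (limma adjusted p = 0.0126) and Uqcrb by 0.54 ± 0.15 (limma adjusted p = 0.0152), each with no overlap between the groups. Ndufc2 was the 1 complex I gene called, at 12.60, 12.94 and 13.40 in HDM back skin against 12.06, 12.22 and 12.78 in sham back skin. Its difference of 0.64 ± 0.21 passed the test (limma adjusted p = 0.0388).

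Without sham back mice 1 and 2, 6 of the genes were called in back skin, namely Ndufa4, Atp5o, Atp5c1, Atp5pb, Atp5g3 and Uqcrb, while 6.03% of all rows were called higher and 7.92% lower. With array medians made equal, 18 were called higher, while 11.0% of all rows were called higher and 6.27% lower. The median over all rows then moved to 0.13 and the share of calls that were higher went to 63.6%, against 41.9% in the deposited scale. In back skin 0 of 26 muscle genes and 0 of 17 hair genes were called, while 8 of 11 adipocyte genes fell and 3 of 13 leukocyte genes were higher. Of the muscle genes 0 and of the hair genes 0 also had an unadjusted p under 0.05. With the muscle score alone as a covariate, every gene called in back skin without it stayed called. Ndufa6 and Atp5g2 were called higher as well. Ndufa4 then had a difference of 1.4 ± 0.26 (limma adjusted p = 2.89e-04). No share of all rows is given for this fit. The adipocyte score was 10.09 to 10.97 in HDM and 11.19 to 12.26 in sham back skin, and with muscle and adipocyte scores as covariates 0 of the 71 genes were called by limma and 3 had an unadjusted p under 0.05, while 0.842% of all rows were called. The ranges of the adipocyte score did not overlap, so agent and adipocyte content cannot be told apart. In the neighbouring pathways, Slc2a1, a glucose transporter, was higher by 1.76 ± 0.34 and Tpi1 by 1.27 ± 0.28 among 6 of 16 glycolysis genes, none of which fell. Sdha of complex II fell by 0.61, Pdha1 of pyruvate dehydrogenase by 0.91 and Cs, citrate synthase, by 0.49 on the log2 scale. Of 16 complex IV genes, Cox5b and Cox6b1 were called higher.

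Side by side, all 11 genes called higher in HDM back skin were also called higher in HDM ear, and 20 were called higher in ear alone. Ndufb3 was called lower in ear alone. Over all rows, 3.9% were called higher in both and 12.5% in ear alone, and 63.1% of those called higher in back skin were also called higher in ear. The differences came from different arrays, but their tests shared a single estimate of the spread per gene, pooled over the 4 groups. The calls in ear and back skin are therefore not independent. The difference between the effects was tested gene by gene. Here 3 of the 71 genes had a larger HDM effect in ear and 1 a smaller one, while 6.77% of all rows had a larger effect and 3.37% a smaller one. The effect on Ndufaf4 was 1.53 ± 0.22 in ear and 0.28 ± 0.22 in back skin, a difference of 1.25 ± 0.31 (limma adjusted p = 0.00795). The effect on Atp5pb was larger in ear by 0.91 ± 0.27 (limma adjusted p = 0.0273), and that on Atp5g1, a c-ring gene, by 0.73 ± 0.24 (limma adjusted p = 0.0466). Ndufa6, an accessory subunit gene, went the other way, with effects of -0.39 ± 0.22 in ear and 0.59 ± 0.22 in back skin and a difference of -0.98 ± 0.31 (limma adjusted p = 0.036). Neither single effect on Ndufa6 passed the test. The effect on Ndufa4l2 differed by 2.48 ± 0.83 (limma adjusted p = 0.0525), and that on Ndufa4 by 0.47 ± 0.37 (limma adjusted p = 0.46). With the muscle score as a covariate 0 of the 71 genes were called by limma and 7 had an unadjusted p under 0.05, while 1.19% of all rows were called, and with array medians made equal 2 of the genes were called.

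Sham ears and sham back skin were compared to see how the tissues differ without HDM. The genes went both ways, with 14 higher and 14 lower in sham ear, while 15.6% of all rows were called higher, 14.1% lower and 29.7% in either direction. Ndufa4l2 had the largest difference of the set. It stood at 5.53, 6.65 and 7.40 in sham ears, against 9.57, 10.39 and 11.94 in sham back skin. The groups did not overlap, and the difference was -4.07 ± 0.59 (limma adjusted p = 1.97e-06). Ndufa6 stood at 11.04, 12.42 and 12.97 in sham ears, against 10.10, 10.44 and 10.83 in sham back skin, with no overlap and a difference of 1.68 ± 0.22 (limma adjusted p = 2.61e-07). Ndufa5, an accessory subunit gene, was higher in sham ear by 0.96 ± 0.18, Ndufs3, a core subunit gene, by 0.76 ± 0.18 and Ndufa4 by 0.74 ± 0.26. With muscle and adipocyte scores as covariates Ndufs3 turned to -0.058 and Ndufa4 to -0.47, and Ndufa4 turned to -0.22 with the hair score. The adipocyte score was 9.62 to 10.05 in sham ears and 11.19 to 12.26 in sham back skin. The hair score was 4.66 to 6.62 and 6.87 to 14.96. Neither overlapped, so tissue and these 2 scores cannot be told apart.

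On the lower side, Atp5e, the epsilon subunit gene of the head, fell by 1.08 on the log2 scale in sham ear, Ndufc1 by 0.89, Ndufaf4 by 0.86 and the core subunit gene Ndufs1 by 0.62. In complex III 3 of 8 genes were lower and 0 higher, with Uqcrh and Uqcr10 each at -0.52. Within the ATP synthase, Atp5h, Atp5g2 and Atp5l were higher and Atp5k, Atp5pb and Atp5g3 lower, so that genes of the same membrane part went in opposite directions. All 17 hair genes and 9 of 11 adipocyte genes were lower in sham ear, and with the hair score as a covariate 2 of the 71 genes were called, while 9.68% of all rows were. The part of hair follicles in the tissue difference was not tested beyond this. With array medians made equal 16 genes were higher and 9 lower, the median over all rows moving to 0.16, against 0.04 in the deposited scale, and the share of calls that were higher being 67.3%, against 52.6%.

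HDM ears were set against HDM back skin in the same way, and the genes of complex I made up most of the higher calls. Of the 71 genes 21 were higher and 5 lower in HDM ear, while 16.8% of all rows were called higher, 11.2% lower and 28.0% in either direction. In complex I 14 of 35 genes were higher and 2 lower, including 5 of the 6 core genes, whereas in complex III 1 of 8 and in the ATP synthase 4 of 17 were higher. Ndufa4 was higher in HDM ear by 1.21 ± 0.26 (limma adjusted p = 4.71e-04), Ndufb8, an accessory subunit gene, by 0.98 ± 0.26, and Ndufa8 by 0.90 ± 0.22. Among the core genes Ndufs7, which holds an iron-sulfur cluster near the ubiquinone site, was higher by 0.74 ± 0.23, Ndufs3 by 0.73 ± 0.18 and Ndufv1 by 0.56 ± 0.15. Ndufs1 fell by 0.48 on the log2 scale, Uqcrh by 0.70, Atp5e by 0.84 and Ndufa4l2 by 1.58 (limma adjusted p = 0.0421). Uqcrh stood at 12.56, 12.65 and 12.82 in HDM ears, against 13.06, 13.35 and 13.75 in HDM back skin, with no overlap. In this comparison 21 of 26 muscle genes, 17 of 17 hair genes and 8 of 11 adipocyte genes were lower in ear, and the part of these tissues in the difference was not tested further. With the muscle score as a covariate 15 of the 71 genes were called, while 16.3% of all rows were. With muscle and adipocyte scores 4 were called, all lower, while 16.6% of all rows were, and with the hair score 1 was, while 4.32% of all rows were. With muscle and adipocyte scores the differences turned to -0.034 for Ndufa4, -0.40 for Ndufa8 and -0.019 for Ndufs3. The muscle, adipocyte and hair scores each did not overlap between HDM ears and HDM back skin. Tissue and these scores therefore cannot be told apart.

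The genes were then set against muscle content within each tissue, since some muscle genes are themselves unequal between the tissues, with sham ear minus sham back skin differences of 5.13 for Tnnt1 and -5.24 for Mybpc2. The slope of each gene on the muscle score was fitted over the 16 arrays of a tissue with agent as a covariate, in log2 units per log2 unit of score. In back skin 0 of the 71 slopes were called in either direction, while 0.937% of all rows were called (0.892% higher and 0.045% lower), and 8 had an unadjusted p under 0.05 with limma. The median slope was 0.06 and 58 slopes were positive. The largest in complex I was that of Ndufa5 at 0.21 ± 0.08 (limma adjusted p = 0.507), in complex III that of Uqcr11 at 0.17 ± 0.07 (limma adjusted p = 0.612) and in the ATP synthase that of Atp5j at 0.21 ± 0.09 (limma adjusted p = 0.604). In the same fit 21 of 26 muscle genes were called, as their part in the score requires, and 3 of 16 complex IV genes. Sham back arrays spanned muscle scores from 8.90 to 13.16, while HDM back arrays covered 10.52 to 11.54. Within sham back skin alone 0 of the 71 slopes were called by limma and 5 had an unadjusted p under 0.05, while 0.707% of all rows were called (0.684% higher and 0.0225% lower). Their median was 0.06, from -0.20 to 0.22.

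In ear, a single slope for both agents gave 1 call among the 71 genes, lower, for Ndufa4l2 at -1.70 ± 0.28 (limma adjusted p = 0.0032), while 2.05% of all rows were called higher, 3.42% lower and 5.47% in either direction. This call was lost with the adipocyte score as a further covariate, where 0 of the 71 genes were called by limma and 20 had an unadjusted p under 0.05, while 0.194% of all rows were called. The other slopes ran from -0.42 for Atp5o to 0.23 for Ndufa6. This single slope joined 2 unlike patterns. Within HDM ears 30 of the 71 genes had a negative slope that passed the test and 0 a positive one, while 10.4% of all rows were called lower and 11.8% higher. The median slope was -0.37, and 3 slopes were positive. Within sham ears 2 were called, both higher, while 0.194% of all rows were called higher and 0.036% lower, and the median slope was 0.27 with 62 positive. These calls in sham ears were Ndufa6 at 0.89 ± 0.15 (limma adjusted p = 0.0402) and Atp5h at 0.90 ± 0.14 (limma adjusted p = 0.0282), and leaving out single sham ears gave 0 to 3 calls. Over sham ears the muscle score and the mean level of the 71 genes had a correlation (r) of 0.89. Without the 2 arrays farthest from the median score this correlation was 0.61. In HDM ears it was -0.97 with and without the 2 farthest arrays.

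**Figure D3:**
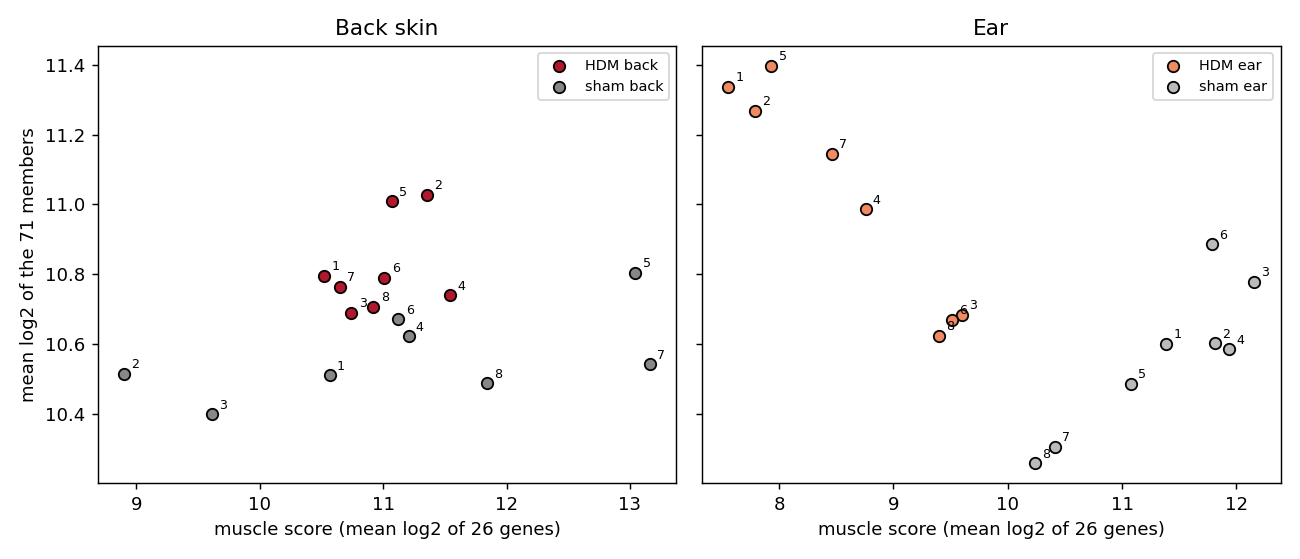
Mean log2 level of the 71 genes on each array against the muscle score of the same array, in back skin (left) and ear (right), with mouse numbers beside the points. HDM ears run downward from mouse 1 at a score of 7.56 to mouse 3 at 9.60, while sham ears run upward between 10.24 and 12.16.

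The difference of the slopes, HDM minus sham, was negative and called for 41 of the 71 genes in ear and positive and called for 0, while 6.64% of all rows were called lower and 9.35% higher. This test was chosen after the slopes within each agent had been seen. The muscle scores of HDM and sham ears did not overlap, so a difference by agent cannot be told apart from a single curved relation to the score. The 41 comprised 17 of 35 complex I genes, 3 of 8 assembly factors, 5 of 8 complex III genes and 13 of 17 ATP synthase genes, with both Ndufa4 and Ndufa4l2 and with Ndufb4b. The slope of Ndufa4 was -0.88 ± 0.12 in HDM ears and 0.68 ± 0.17 in sham ears, a difference of -1.55 ± 0.21 (limma adjusted p = 1.62e-04). For Ndufa4l2 it was -2.57 ± 0.19 in HDM ears and -0.56 ± 0.23 in sham ears. For Ndufc2 it was -0.75 ± 0.12 in HDM ears and 0.49 ± 0.17 in sham ears. Atp5o, at -0.81 ± 0.14 in HDM ears and 0.09 ± 0.13 in sham ears, and Atp5pb, at -0.72 ± 0.11 in HDM ears and 0.02 ± 0.15 in sham ears, had slopes close to 0 in sham ears. Without sham ear mouse 8, which had the lowest muscle score of its group, 25 differences of slope were called, and over all single ears left out 25 to 42 were.

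**Figure D4:**
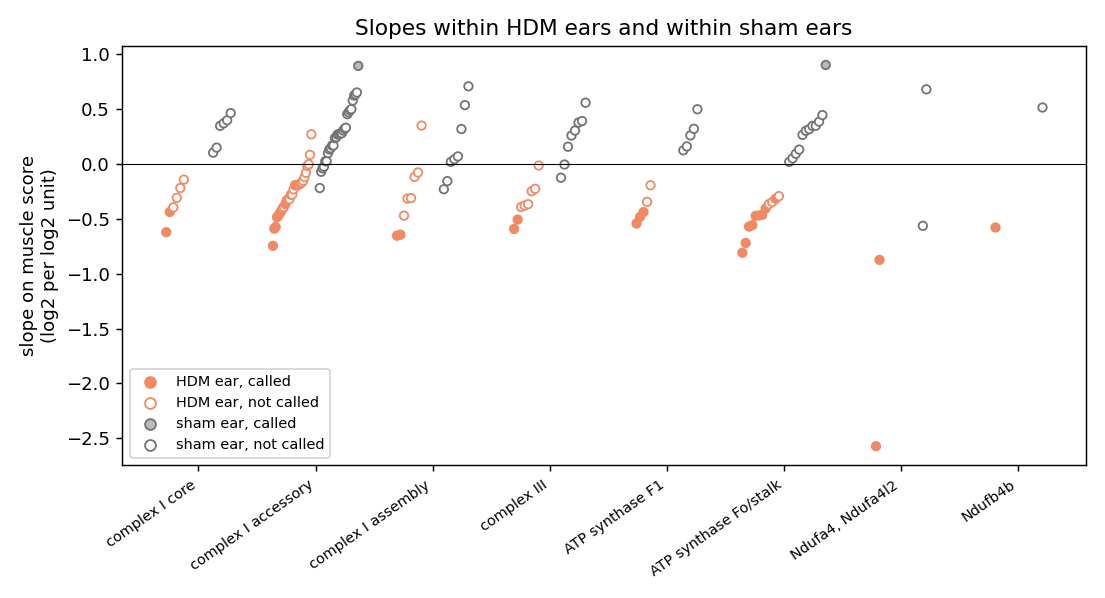
Slope of each gene on the muscle score, in log2 units per log2 unit, within HDM ears (orange, left of each pair) and within sham ears (grey, right), grouped by complex. Filled points passed the test. Most HDM slopes lie below 0, with Ndufa4l2 lowest at -2.57, and most sham slopes above 0.

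Other tissue moved along the same axis. Within HDM ears the slope was negative and called for 11 of 13 leukocyte genes (median -1.02) and 11 of 16 glycolysis genes (median -0.85), and positive and called for 5 of 11 adipocyte, 4 of 6 cartilage and 4 of 17 hair genes. Of 10 epidermis genes 5 had a positive and 2 a negative called slope. Of 16 complex IV genes 6 had a negative called slope and 1, the muscle isoform gene Cox6a2, a positive one at 0.89 ± 0.27. HDM mice 1, 2, 5 and 7 had leukocyte scores of 11.59, 11.94, 11.85 and 11.40, against at most 10.30 on the other 4 HDM ear arrays. In sham ears, leukocyte scores were 7.47 to 8.45. The parts of leukocytes, fat, cartilage, hair and epidermis in the slopes were not tested. In back skin the difference of slopes was called for 0 of the 71 genes and for 0.0% of all rows, and 3 of the genes had an unadjusted p under 0.05 with limma.

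Of the 71 genes 22 were called in none of the 5 comparisons of groups, as were 46.0% of all rows. They include 6 of the 8 assembly factors, all but Ndufaf2 and Ndufaf4, the complex III genes Uqcrq and Uqcr11, and the ATP synthase genes Atp5a1, which encodes the alpha subunit of the head, and Atp5j2. The remaining 12 are accessory subunit genes of complex I.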

How the data were processed

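Total RNA from skin and ear punches was hybridised to Affymetrix arrays, and the deposited log2 values were made by the authors, whose processing notes as submitters name RMA and the Transcriptome Analysis Console. Software versions, the genome build and any rescaling after RMA were not stated there. From those values a linear model with 4 group means was fitted over all 32 arrays by limma (version 3.58.1, under R 4.3.3), with moderated two-sided tests on 22206 rows, 6640 control rows left out and Benjamini-Hochberg adjustment over all rows. The slopes on the muscle score were fitted per tissue. Where a score was a covariate in a comparison of groups, each gene had a single slope on it over the arrays of both tissues. No depth applies to arrays, and the number of arrays limits the precision.

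The members and gene lists were chosen with earlier results of these data known. The rule for naming took the called genes of each complex with the largest differences, up to 3 per direction, with Ndufa4 and Ndufa4l2 always. It also took up to 2 called genes per direction of each pathway or marker list. Some genes that the rule selects are left unnamed in the text. Genes beyond this rule were picked after their values were seen. Same-numbered ear and back samples had correlations of their deviations from group means between -0.113 and 0.14, so the numbers were not taken to pair samples. Alternatives were equal array medians, leaving out dim rows, trend and robust eBayes, a replicate block, score covariates and leaving out arrays.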

Additional observations from a re-analysis of the deposited data

Results flagged for a closer look

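In 192 groups of 8 arrays, 8 values lay farther from their neighbours than Dixon's criterion allows. Chance gives about 1 in 20 groups, so this number is no more than chance gives. The high values were Atp5c1 at 13.85 in sham back mouse 5, Atp5e at 10.24 and Atp5mpl at 12.97 in sham ear mouse 6, Ndufa6 at 11.95 in HDM back mouse 2, Ndufaf2 at 5.89 in HDM back mouse 7, Ndufb2 at 8.95 in sham back mouse 6 and Uqcr10 at 12.76 in HDM back mouse 5. The low value was Uqcrq at 12.87 in sham back mouse 3.

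The HDM effect differed between ear and back skin, by a test of the interaction, for Ndufaf4 (1.25), Atp5pb (0.91), Atp5g1 (0.73) and Ndufa6 (-0.98).

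The slope on the muscle score differed between HDM and sham ears, HDM minus sham, for a set of named genes, some of them given above. Over all rows 6.64% were called lower and 9.35% higher, and the test was chosen after the slopes within each agent had been seen. In complex I the differences were -1.23 for Ndufc2, -1.17 for Ndufa6, -1.04 for Ndufb8, -0.92 for Ndufa8, -0.90 for Ndufa13, -0.73 for Ndufa2 and -0.62 for Ndufc1. They were -1.55 for Ndufa4 and -2.01 for Ndufa4l2. In complex III they were -0.81 for Uqcrq, -0.77 for Uqcr10, -0.77 for Uqcr11, -0.76 for Uqcrb and -0.75 for Uqcrfs1. In the ATP synthase they were -1.27 for Atp5h, -0.90 for Atp5o, -0.84 for Atp5c1, -0.81 for Atp5j, -0.80 for Atp5d, -0.77 for Atp5g1, -0.76 for Atp5b, -0.74 for Atp5pb, -0.69 for Atp5mpl and -0.61 for Atp5g2.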

How the results depend on the processing

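Counts are of the 71 genes called, and where no cause is named the cause was not tested. Where no share of all rows is given above for a setting, its count is not set against the array as a whole. With array medians made equal, 18 were called for HDM in back skin and 2 for the interaction, where the median over all rows became -0.13 and the share of calls that were higher 45.8%, against 66.8%. Without sham back mice 1 and 2, 6 were called in back skin. The muscle score as a covariate left 9 in ear, 0 in the interaction and 15 in HDM ear minus HDM back skin. In back skin it kept all 11 calls and added Ndufa6 and Atp5g2. Muscle and adipocyte scores together left 0 in back skin, 0 in ear, 0 in the interaction, 18 in sham ear minus sham back skin and 4 in HDM ear minus HDM back skin. The hair score left 2 and 1 in the sham and HDM tissue comparisons. The muscle score without sham back mice 1 and 2, a setting added after seeing the data, gave 3 in back skin, 4 in ear, 0 in the interaction and 10 in HDM ear minus HDM back skin. The ear slope, with 1 call, had 0 with the replicate block or the adipocyte score, 2 with dim rows left out, with trend and robust eBayes, with the hair score, with sham ears alone or without Ckm, Mb and Pvalb in the score, and 30 in HDM ears alone. The replicate block with mouse number fixed gave 11 in back skin, 34 in ear, 5 in the interaction, 27 and 26 in the sham and HDM tissue comparisons and 0 for the back slope.

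Leaving out single ear arrays, added after seeing the data, gave 29 to 36 calls in ear, 21 to 31 for the slope in HDM ears, 0 to 3 for that in sham ears and 25 to 42 for their difference.

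Signs turned with muscle and adipocyte scores as covariates. In each of the comparisons below the adipocyte score did not overlap between the groups, so score and group cannot be told apart. In HDM minus sham back skin, Ndufc2 became -0.26, Uqcrfs1 -0.047, Uqcrb -0.12 and Atp5b -0.021, and in ear Ndufa4l2 became -0.79. In sham ear minus sham back skin, Ndufs3 became -0.058, Ndufv1 -0.061, Ndufa4 -0.47, Atp5c1 -0.019, Atp5h -0.17 and Atp5l -0.37, and Ndufa4 became -0.22 with the hair score. In HDM ear minus HDM back skin, Ndufs3 became -0.019, Ndufa8 -0.40, Ndufa4 -0.034, Uqcrb -0.63, Atp5l -0.29, Atp5o -0.80 and Atp5g1 -0.24.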
